A study of Mus musculus with 13 samples.

Results

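The lysyl oxidase family of the mouse holds 5 genes, Lox, Loxl1, Loxl2, Loxl3 and Loxl4, which were taken by name from the 20270 genes of the deposited tables. All 5 were measured in each of 13 lung RNA libraries, and all 5 passed the filter on low counts, which left 15315 genes for testing. The study asked how deletion of the cannabinoid receptor CB1R alters the transcriptome of lungs made fibrotic with bleomycin, a DNA-damaging drug that injures the lung epithelium. The 4 Control libraries came from wildtype (WT) male C57BL/6J mice, 13 weeks old, that received the saline vehicle in place of the drug. The 5 WT bleomycin libraries came from mice of the same strain, sex and age, 14 days after 1 oropharyngeal dose of bleomycin at 1 U per kg. The 4 CB1R KO bleomycin libraries came from mice on the C57BL/6J background in which Cnr1, which encodes CB1R, is deleted in every tissue, and which received the same dose and were taken on the same day, at an age that is not stated. Uninjured CB1R KO lungs were not analysed here, so the knockout is seen under bleomycin only. RNA was extracted from 1 lobe of the whole lung, and each library keeps the number of its label.

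Lysyl oxidases are secreted enzymes that use copper and a quinone cofactor made from side chains of the enzyme itself. They oxidise lysine and hydroxylysine side chains of collagen and elastin to aldehydes, which then react with neighbouring chains to form covalent cross-links and so stiffen and stabilise the fibres. Lox and Loxl1 are made as proenzymes with a propeptide that BMP1-type proteases remove, Loxl1 is best known for its role in elastic fibres, and Loxl2, Loxl3 and Loxl4 carry scavenger receptor cysteine-rich domains in front of the catalytic domain. In scarring lung, fibroblasts and myofibroblasts are the main known source of these enzymes.

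The members share a catalytic domain at the end of the protein, and the stretch of 90 coding bases in which they were most alike is shown for 4 of them because it bears on whether short reads can be assigned to one member. The stretches lie in exons 5 and 6 of Loxl1 (chr9:58290856-58292643, minus strand), in exons 12 and 13 of Loxl2 (chr14:69690196-69692328, plus strand), in exons 12 and 13 of Loxl3 (chr6:83050370-83050572, plus strand) and in exons 13 and 14 of Loxl4 (chr19:42597595-42598019, minus strand), in the mouse build GRCm38 with each span including the intron between the exons. Capitals mark the 53 bases that are identical in the 4 genes.
Loxl1: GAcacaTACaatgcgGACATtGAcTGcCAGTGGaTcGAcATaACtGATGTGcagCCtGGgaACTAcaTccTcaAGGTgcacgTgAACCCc
Loxl2: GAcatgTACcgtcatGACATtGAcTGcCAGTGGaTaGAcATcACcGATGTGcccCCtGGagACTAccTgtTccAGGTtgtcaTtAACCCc
Loxl3: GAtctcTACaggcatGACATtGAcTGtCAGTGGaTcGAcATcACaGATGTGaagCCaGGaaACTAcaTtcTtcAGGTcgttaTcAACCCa
Loxl4: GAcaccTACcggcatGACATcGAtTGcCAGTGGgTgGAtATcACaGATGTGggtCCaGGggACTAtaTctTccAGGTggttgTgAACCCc

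In this stretch, pairs of the 5 members differed at 21 to 29 of 90 bases, and no identical run was longer than 20 bases. Over whole transcripts, words of 31 bases, the default length that Kallisto matches, were shared between members only by Lox and Loxl1, which had 2 in common. Loxl2 shared 364 of its 5358 words (6.79%) with genes outside the family, and Lox and Loxl2 each overlap an annotated antisense RNA. The largest sharing was that of Loxl3: of its 4095 words, 458 (11.2%) were shared with Htra2, a mitochondrial protease gene that overlaps its exons on the opposite strand. The library kit is not described as keeping strand, so that reads of the overlap could not be told apart by strand. Levels of Htra2 were 19.9 ± 1.74 TPM in the 4 Control, 21.2 ± 1.37 TPM in the 5 WT bleomycin and 20.2 ± 2.29 TPM in the 4 CB1R KO bleomycin libraries (mean ± SD), and it did not pass the test in any comparison (Benjamini-Hochberg adjusted p = 0.456, 0.462 and 0.706, edgeR quasi-likelihood test). In the encoded proteins Lox has 411 residues, Loxl1 607, Loxl2 776, Loxl3 754 and Loxl4 758.

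Of the 13 libraries, 12 held between 14615904 and 16662580 estimated counts, and CB1R KO bleomycin replicate 11 held 53463884, or 3.33 times the median of the rest. Cnr1 was read in every library, at between 0.403 and 1.05 TPM in Control, between 0.848 and 1.85 TPM in WT bleomycin and between 0.648 and 1.50 TPM in the libraries labelled CB1R KO. The last were not below Control and overlapped WT bleomycin, and where in the gene its reads fell is not given, so these levels give no check of the genotype. Fibroblast, endothelial and alveolar epithelial markers were present in every group. In bulk lung RNA, fewer cells of a type and less RNA per cell cannot be told apart. WT bleomycin library 4-B2 carries the number of library 4 with a suffix that the labels do not explain, so whether the pair came from 1 mouse is not stated. The 2 libraries hold different values and were counted as 2 of n = 5. The p-values measure the spread between libraries, which for this pair may be technical.

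All 5 lysyl oxidase genes rose in WT bleomycin lungs. Lox, the founding member that acts on collagen and elastin, had 23.1, 20.1, 21.5 and 21.1 TPM in Control libraries 3, 21, 24 and 26, TPM being a transcript level scaled for transcript length and library total. It had 96.1, 118, 111, 121 and 137 TPM in WT bleomycin libraries 4, 2, 5, 4-B2 and 7. It had 47.5, 55.2, 102 and 63.5 TPM in CB1R KO bleomycin libraries 8, 9, 10 and 11. The Control libraries were close together, every WT bleomycin library lay far above them, and the CB1R KO bleomycin libraries lay between, except that library 10 was within the WT bleomycin range. Bleomycin-treated WT lungs had 5.32-fold more Lox than Control lungs (a difference of 2.41 ± 0.19 (SE) in log2 units, Benjamini-Hochberg adjusted p = 3.23e-07, edgeR quasi-likelihood test), which placed it above 98.4% of the genes tested in this comparison. Its mean level was 21.5 ± 1.26 TPM (SD, n = 4) in Control and 117 ± 14.9 TPM (SD, n = 5) with bleomycin.

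**Figure D1:**
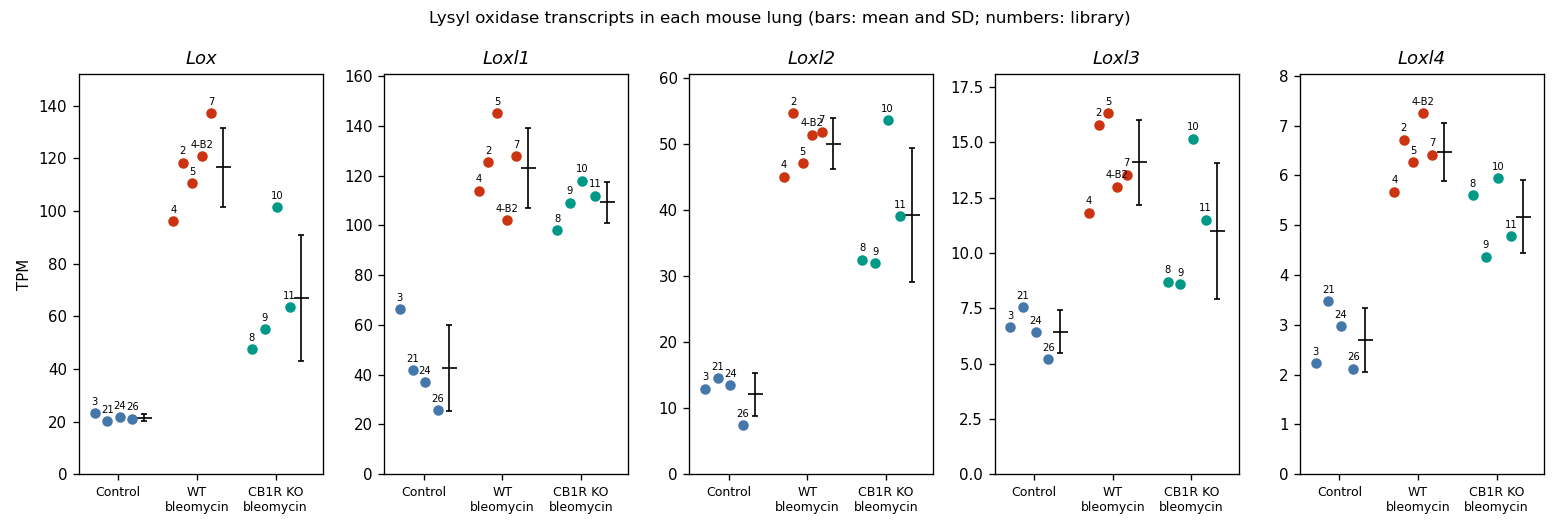
Level of each lysyl oxidase gene (TPM, linear axes from 0, 1 panel per gene) in each library of the Control, WT bleomycin and CB1R KO bleomycin groups, with the library number above each point and the mean and SD beside each group. Every bleomycin library lies above every Control library in all 5 panels, and CB1R KO library 10 is the highest of its group in all 5.

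Loxl1, the member tied to elastic fibres, varied most among uninjured lungs. Control libraries 3, 21, 24 and 26 had 66.3, 41.9, 36.9 and 25.7 TPM. WT bleomycin libraries 4, 2, 5, 4-B2 and 7 had 114, 125, 145, 102 and 128 TPM. CB1R KO bleomycin libraries 8, 9, 10 and 11 had 98.2, 109, 118 and 112 TPM. Both bleomycin groups were above all Control libraries, and they overlapped each other, with only CB1R KO library 8 below the lowest WT bleomycin library. The coefficient of variation among Control libraries was 40.1% for Loxl1 against 5.87% for Lox. The rise of Loxl1 from Control to WT bleomycin was 2.82-fold (a difference of 1.50 ± 0.19 (SE) in log2 units, Benjamini-Hochberg adjusted p = 1.98e-05, edgeR quasi-likelihood test).

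Loxl2, which is known for cross-linking the type IV collagen of basement membranes as well as fibrillar collagen, had the second largest rise. Its level was 12.9, 14.5, 13.5 and 7.39 TPM in Control libraries 3, 21, 24 and 26. In WT bleomycin libraries 4, 2, 5, 4-B2 and 7 it was 45.1, 54.7, 47.1, 51.5 and 51.9 TPM. In CB1R KO bleomycin libraries 8, 9, 10 and 11 it was 32.5, 32.0, 53.7 and 39.1 TPM. Control library 26 stood low, the WT bleomycin libraries were close together, and 3 of the 4 CB1R KO libraries fell below all of them while library 10 was among the highest. The rise of Loxl2 from Control to WT bleomycin was 4.09-fold (a difference of 2.03 ± 0.18 (SE) in log2 units, Benjamini-Hochberg adjusted p = 8.43e-07, edgeR quasi-likelihood test).

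Loxl3 and Loxl4 are the less abundant members with scavenger receptor domains. Loxl3 had 6.64, 7.53, 6.42 and 5.19 TPM in Control libraries 3, 21, 24 and 26, and 11.8, 15.8, 16.3, 12.99 and 13.5 TPM in WT bleomycin libraries 4, 2, 5, 4-B2 and 7. In CB1R KO bleomycin libraries 8, 9, 10 and 11 it had 8.70, 8.60, 15.2 and 11.5 TPM. Libraries 8 and 9 thus lay just above the highest Control value, library 11 just under the lowest WT bleomycin value and library 10 inside the WT bleomycin range. Loxl4 had 2.23, 3.47, 2.97 and 2.12 TPM in Control libraries in the same order, and 5.67, 6.72, 6.26, 7.25 and 6.41 TPM in WT bleomycin libraries. In CB1R KO bleomycin libraries 8, 9, 10 and 11 it had 5.60, 4.37, 5.94 and 4.78 TPM. For Loxl4 the 3 libraries other than 10 were again below the WT bleomycin range, library 8 by a small margin. Compared with Control lungs, WT bleomycin lungs had 2.13-fold more Loxl3 (a difference of 1.09 ± 0.17 (SE) in log2 units, Benjamini-Hochberg adjusted p = 9.36e-05, edgeR quasi-likelihood test) and 2.38-fold more Loxl4 (a difference of 1.25 ± 0.16 (SE) in log2 units, edgeR adjusted p = 2.24e-05).

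In this comparison 5 of 5 members were called higher at an adjusted p under 0.05, where 25.0% of the genes tested were called higher and 48.9% in either direction. Every WT bleomycin library was above every Control library in all 5, where 21.5% of the genes tested had such a separation. The median log2 fold change of the members was 1.50, against -0.01 over the genes tested. Markers of fibroblasts did not move as 1 list. Of the 6, 3 rose (Col1a1, Col1a2 and Lum) and 1 fell (Tcf21), and the rise of their sum came mainly from Col1a1 and Col1a2, which are also substrates of the enzymes: Pdgfra was at 88.2 and 85.9, Dcn at 159 and 170, Lum at 5.97 and 18.1 and Tcf21 at 154 and 65.7 TPM on average in Control and WT bleomycin lungs. The summed level of the 6 went from between 562 and 613 TPM in Control to between 1226 and 1748 TPM in WT bleomycin libraries, and none was at 0 in every library. Of 6 myofibroblast and smooth muscle markers 3 rose and 1 fell, with a sum of 509 to 622 TPM in Control and 665 to 997 TPM in WT bleomycin libraries. Of 5 macrophage markers 4 rose and 0 fell, with a sum of 168 to 233 TPM in Control and 309 to 487 TPM in WT bleomycin libraries. Of 5 type II cell markers 4 fell, from a sum of 29367 to 34133 TPM in Control to 17682 to 21165 TPM, and 5 of 5 red blood cell markers fell. All 5 cardiac muscle markers fell as well, from a sum of 602 to 1463 TPM in Control to 118 to 432 TPM. The part of any of these in the rise of the lysyl oxidases was not tested.

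Per length, Loxl1 was the most abundant transcript of the family, followed by Lox, Loxl2, Loxl3 and Loxl4, in 4 of 4 Control and 4 of 4 CB1R KO bleomycin libraries. In WT bleomycin lungs this order held in 3 of 5 libraries, and Lox exceeded Loxl1 in the other 2, libraries 4-B2 and 7. Lox and Loxl1 were thus neighbours that did not separate in WT bleomycin lungs, where the ratio of Lox to Loxl1 in TPM ran from 0.762 to 1.18, while in Control libraries it ran from 0.349 to 0.82 and in CB1R KO bleomycin libraries from 0.484 to 0.86. Each step from Lox to Loxl2, Loxl3 and Loxl4 kept its order in every library, and the smallest of these ratios in a library was 1.38 for Lox to Loxl2, 1.43 for Loxl2 to Loxl3 and 1.55 for Loxl3 to Loxl4.

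The summed level of the 5 transcripts averaged 85.4 ± 20.5 TPM over the 4 Control, 310 ± 26.0 TPM over the 5 WT bleomycin and 232 ± 44.6 TPM over the 4 CB1R KO bleomycin libraries (mean ± SD). CB1R KO libraries 8, 9, 10 and 11 had summed levels of 193, 209, 294 and 231 TPM, of which only that of library 10 reached the WT bleomycin range of 273 to 337 TPM. The make-up of the sum differed between groups as well. The share of Lox was 26.1 ± 5.93% in Control libraries, 37.6 ± 3.16% in WT bleomycin libraries and 28.3 ± 4.31% in CB1R KO bleomycin libraries (mean ± SD, n = 4, 5 and 4). That of Loxl1 was 48.7 ± 7.69%, 39.6 ± 3.76% and 47.9 ± 5.45% in the same order. The share of Lox in Control library 26 (34.3%) and in CB1R KO library 10 (34.5%) lay within the WT bleomycin range of 34.0% to 41.0%, and the other libraries of both groups were below it. Shares of Loxl2 varied less between groups, at 14.2%, 16.2% and 16.8% on average.

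**Figure D2:**
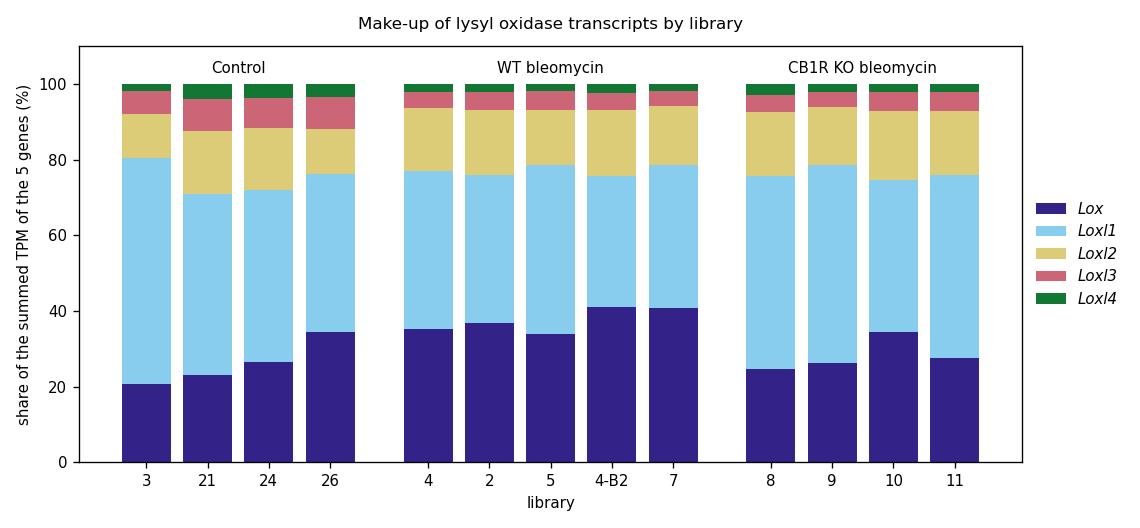
Share of the summed TPM of the 5 lysyl oxidase genes held by each gene (percent, stacked to 100) in each of the 13 libraries, grouped as Control, WT bleomycin and CB1R KO bleomycin. Lox holds 34.0% to 41.0% in WT bleomycin libraries, and of the other libraries only Control 26 and CB1R KO 10 reach that range.

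Set against WT bleomycin, the libraries labelled CB1R KO had less Lox, and the other members did not pass the threshold. Lox was 1.80-fold lower in CB1R KO bleomycin lungs (a difference of -0.85 ± 0.18 (SE) in log2 units, 95% interval -1.22 to -0.47, Benjamini-Hochberg adjusted p = 0.0396, edgeR quasi-likelihood test), with a mean of 66.9 ± 24.0 TPM (SD, n = 4). For Loxl2 the log2 fold change was -0.44 (95% interval -0.80 to -0.08, edgeR adjusted p = 0.20). For Loxl4 it was -0.43 (95% interval -0.76 to -0.10, edgeR adjusted p = 0.172). For Loxl3 it was -0.40 (95% interval -0.74 to -0.06, edgeR adjusted p = 0.223). Loxl1 had the smallest difference, -0.21, with a 95% interval of -0.60 to 0.18 that holds both no change and a fall of the size estimated for Loxl2 (edgeR adjusted p = 0.594). Whether the members differ from each other in this response was not tested.

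The count was 1 of 5 members called lower, where 0.620% of the genes tested were called lower and 0.979% were called in either direction. An unadjusted p under 0.05 with a lower level was met by 4 of 5 members, Lox, Loxl2, Loxl3 and Loxl4, where 9.08% of the genes tested met it. The median log2 fold change of the members was -0.43, against 0.00 over the genes tested. In 0 of 5 members did the CB1R KO libraries all lie below the WT bleomycin range, a separation seen in 3.10% of the genes tested.

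The call on Lox was close to the threshold, and leaving out 1 library was often enough to lose it. Its log2 fold change stayed between -1.12 and -0.71 when each of the 13 libraries was left out in turn, and the call was lost without Control 21 or 24, WT bleomycin 2, 5, 4-B2 or 7, or CB1R KO 8, 9 or 11 (edgeR adjusted p between 0.0511 and 0.144). Without CB1R KO library 10, the one inside the WT bleomycin range for Lox, Loxl2, Loxl3 and Loxl4, the same test called 3 members lower: Lox (-1.12, adjusted p = 0.0008), Loxl2 (-0.63, adjusted p = 0.0330) and Loxl3 (-0.59, adjusted p = 0.0333). The number of genes called among all tested rose from 150 to 653 in that fit. The labels are written in lower case for the CB1R KO group and in capitals for Control 26 and WT bleomycin 4-B2 and 7, and what the style stands for is not stated. Among libraries with lower-case labels alone the log2 fold change of Lox was -0.71 (edgeR adjusted p = 0.275), and the style with capitals held no CB1R KO library, so that it gives no value.

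**Figure D3:**
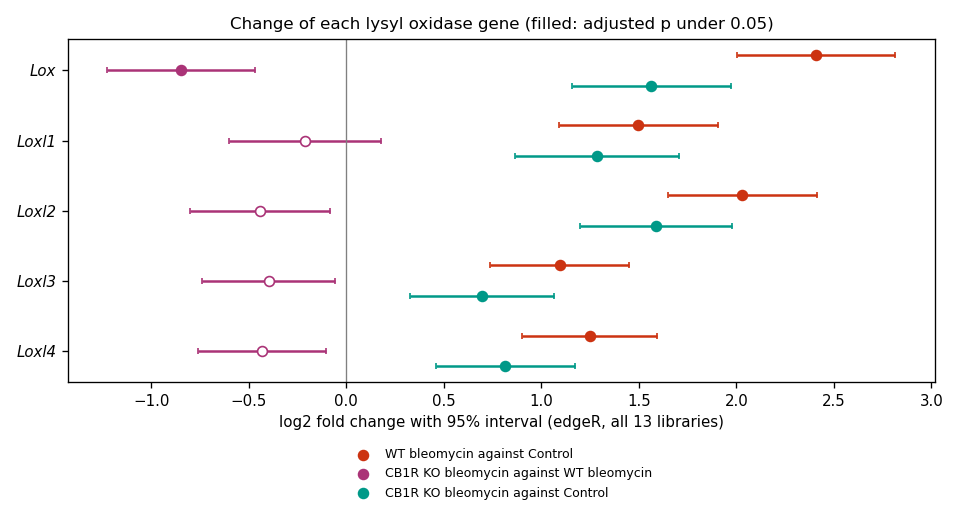
Log2 fold change of each lysyl oxidase gene (horizontal axis) with its 95% interval from the edgeR fit of 13 libraries, for WT bleomycin against Control, CB1R KO bleomycin against WT bleomycin and CB1R KO bleomycin against Control; filled points have an adjusted p under 0.05. Only Lox is filled in CB1R KO bleomycin against WT bleomycin, while all 5 genes are filled in both comparisons with Control.

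Some markers moved with the groups and some with library 10. The summed level of the 6 fibroblast markers, most of it Col1a1 and Col1a2, was 928, 946, 1410 and 1290 TPM in CB1R KO libraries 8, 9, 10 and 11, against 1226 to 1748 TPM in WT bleomycin libraries, and 0 of the 6 were called between the groups by edgeR, while Col1a1, Col1a2 and Lum were lower and Tcf21 higher at an unadjusted p under 0.05. The 6 markers of myofibroblasts and smooth muscle summed to 572, 656, 619 and 556 TPM in CB1R KO libraries 8, 9, 10 and 11. In WT bleomycin libraries their sum was between 665 and 997 TPM. Of the 6, 2 were called lower in CB1R KO lungs, Tagln and Actg2, where 0.620% of the genes tested were called lower. The 5 markers of type II alveolar cells, whose best known member encodes surfactant protein C, summed to 30074, 34075, 22085 and 33536 TPM in CB1R KO libraries 8, 9, 10 and 11 and to between 17682 and 21165 TPM in WT bleomycin libraries. Library 10 was thus the highest of its group for fibroblast markers and the lowest for type II markers. For myofibroblast and smooth muscle markers it was neither, and it lay below the WT bleomycin range. Of the 5 type II markers 2 were called higher in CB1R KO lungs, and of 5 T and NK cell markers 1 was. Among the genes tested 0.359% were called higher. Cardiac muscle markers summed to between 438 and 761 TPM in CB1R KO and between 118 and 432 TPM in WT bleomycin libraries, with 0 called. Adipocyte markers summed to between 59.1 and 251 TPM in CB1R KO and between 22.6 and 141 TPM in WT bleomycin libraries, with 0 called. The part of these cell types in the levels of the lysyl oxidases was not tested.

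Compared with Control lungs, all 5 members were still higher in CB1R KO bleomycin lungs, where 19.0% of the genes tested were called higher and 35.4% in either direction. This comparison shares its Control libraries with the first and its CB1R KO libraries with the second, so it is no independent evidence for either. Log2 fold changes were 1.56 for Lox, 1.29 for Loxl1, 1.59 for Loxl2, 0.70 for Loxl3 and 0.82 for Loxl4, with edgeR adjusted p between 2.23e-05 and 0.00647. Every CB1R KO bleomycin library was above every Control library in all 5 genes, where 17.7% of the genes tested had such a separation.

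The 3 comparisons can be put on 1 scale by giving each CB1R KO bleomycin library its place between the mean of Control (0%) and the mean of WT bleomycin (100%) in log2 CPM, the counts scaled to library size. On this scale Lox stood at 62.7 ± 20.0% (SD, n = 4), Loxl1 at 86.9 ± 7.95%, Loxl2 at 77.3 ± 16.6%, Loxl3 at 60.6 ± 35.9% and Loxl4 at 65.6 ± 18.8%, each over 4 libraries. On this scale the spread was widest for Loxl3, from 31.6% in library 8 to 107% in library 10. It was narrowest for Loxl1, from 75.7% in library 8 to 94.2% in library 10. The scale divides by each gene's own rise, which was smaller for Loxl3 than for Lox, so it widens the spread of Loxl3. In TPM the coefficient of variation among CB1R KO libraries was 35.8% for Lox, 28.1% for Loxl3 and 7.60% for Loxl1. Library 10 stood at 89.7% or more for every member. Libraries 8 and 9 were the lowest for Lox, Loxl2 and Loxl3, whereas for Loxl4 the lowest were libraries 9 and 11.

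**Figure D4:**
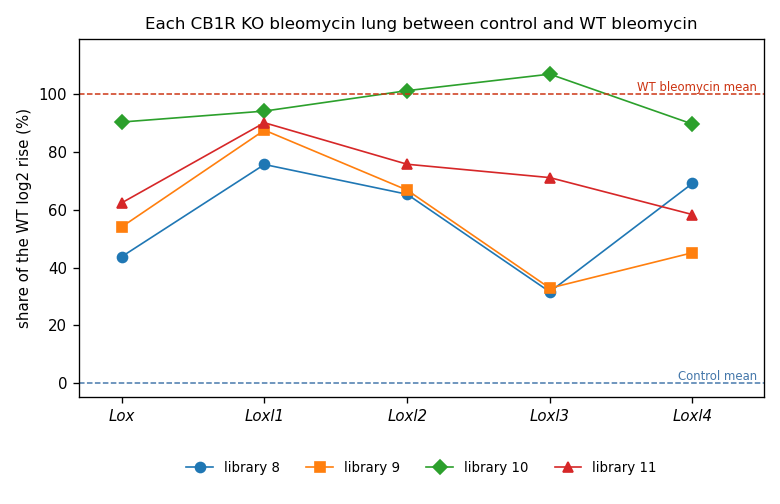
Place of each CB1R KO bleomycin library between the Control mean (0%) and the WT bleomycin mean (100%) in log2 CPM, for each lysyl oxidase gene; lines join the values of 1 library. Library 10 lies at 89.7% to 107% throughout, and the other 3 libraries lie between 31.6% and 90.1%.

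The substrates of the enzymes, collagen chains and elastin, rose with them. Of 15 substrate genes tested, 13 rose and 1 fell in WT bleomycin against Control lungs, with a median log2 fold change of 2.40 where the 5 enzymes had 1.50. Among all genes tested, 25.0% were called higher and 23.9% lower. Eln, the gene of elastin, rose by 4.22 (standard error 0.33), Col1a1, the main chain of type I collagen, by 3.13 (standard error 0.29) and Col3a1 by 2.80 (standard error 0.19) on the log2 scale. Of the 6 type IV chains of basement membranes 5 rose, by 0.30 for Col4a3 (standard error 0.10) to 1.57 for Col4a1 (standard error 0.09), and Col4a6 was lower, at -0.52 (standard error 0.12). In CB1R KO against WT bleomycin lungs 0 of the 15 were called by edgeR, with a median of -0.33, where 0.979% of all genes tested were called. While 9.08% of all genes tested were lower at an unadjusted p under 0.05 in edgeR, 7 of the 15 were. Among them were Col5a3 at -0.82 (standard error 0.21, edgeR adjusted p = 0.0735), Col1a1 at -0.71 (standard error 0.26) and Col5a1 at -0.70 (standard error 0.19), while Eln was at -0.33 (standard error 0.28). Against Control, 13 of the 15 substrates were still higher in CB1R KO bleomycin lungs, where 19.0% of all genes tested were called higher. Between CB1R KO and WT bleomycin, DESeq2 called 6 of the substrates, limma on log2(TPM + 1) called 0, and edgeR called 0 to 5 when single libraries were left out. Among all genes DESeq2 called 640, limma 106 and edgeR 150, or 1 to 653 when single libraries were left out.

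Genes that activate lysyl oxidases or hold them on fibres moved in both directions. Of 15 tested, 10 rose and 3 fell in WT bleomycin against Control lungs, with a median log2 fold change of 0.68. The shares called over all genes tested were 25.0% higher and 23.9% lower. Bmp1, the protease that cleaves the propeptide of Lox, rose by 1.65 (standard error 0.13). Adamts2, which had the smallest p of the list in edgeR, rose by 1.87 (standard error 0.10). Fn1, the gene of fibronectin, which binds Lox, rose by 2.95 (standard error 0.19). Fbn1, the gene of the microfibril protein fibrillin, rose by 2.50 (standard error 0.15) and Fmod, the gene of the collagen-binding fibromodulin, by 2.26 (standard error 0.22). Pcolce2, which encodes an enhancer of procollagen cleavage, fell by 1.85 (standard error 0.17), and Tnxb and Ltbp4 fell by 1.55 (standard error 0.17) and 1.18 (standard error 0.09).

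Among the lists of related genes, those for activation and scaffold held the 4 genes that edgeR called when CB1R KO was set against WT bleomycin. These were 4 of 15 tested, where 0.979% of all genes tested were called. Thbs1, the gene of thrombospondin 1, fell by 0.75 (standard error 0.14, adjusted p = 0.0266), Fn1 fell by 0.86 (standard error 0.18, adjusted p = 0.0389), and Efemp2, the gene of fibulin 4, which brings Lox to elastic fibres, fell by 0.40 (standard error 0.08, adjusted p = 0.0371). Pcolce2 rose by 0.81 (standard error 0.17, adjusted p = 0.0413). Fmod was at -0.81 (standard error 0.20, adjusted p = 0.0695) and Bmp1 at -0.32 (standard error 0.12, adjusted p = 0.208). Adamts2 was at -0.15 (standard error 0.10, edgeR adjusted p = 0.471). Each of the 4 called genes moved against its change with bleomycin, and since both comparisons use the WT bleomycin libraries this is a description. DESeq2 called 7 genes of the list and limma on log2(TPM + 1) called 2, and leaving out 1 library at a time gave edgeR counts of 0 to 8. Over all genes the counts in these settings were 640, 106 and 1 to 653.

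Hydroxylation of the lysines that the enzymes later oxidise is carried out by Plod1, Plod2 and Plod3 with their partners. Of 10 such genes tested, 8 rose and 1 fell in WT bleomycin against Control lungs, with a median log2 fold change of 0.57. Over all genes tested, 25.0% were called higher and 23.9% lower. Fkbp10, which supports the hydroxylase Plod2 on collagen telopeptides, rose by 1.37 (standard error 0.11) and Serpinh1, the collagen chaperone, by 1.28 (standard error 0.12), both further than Plod1 (0.72, standard error 0.09), Plod3 (0.48, standard error 0.06) and Plod2 (0.28, standard error 0.09). Colgalt2, one of the genes for collagen galactosyltransferases, fell by 1.48 (standard error 0.21). In CB1R KO against WT bleomycin lungs 0 of the 10 were called by edgeR, 1 by DESeq2 and 0 by limma. Among all genes the same tests called 150, 640 and 106. An unadjusted p under 0.05 in edgeR was met by 4, all lower, where 9.08% of all genes tested met it with a lower level. Fkbp10 was at -0.41 (standard error 0.11, edgeR adjusted p = 0.0735).

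Copper reaches the enzymes through transporters and chaperones. Of 9 genes tested, 4 rose and 1 fell in WT bleomycin against Control lungs, with a median log2 fold change of 0.08, a share called that is near the 48.9% of all genes tested. The 2 largest rises were those of the metallothioneins Mt2 (2.99, standard error 0.43) and Mt1 (1.77, standard error 0.36), which bind zinc as well as copper. Atox1, the chaperone that hands copper to the secretory pathway, rose by 0.83 (standard error 0.09), whereas the pump Atp7a, which loads copper onto secreted enzymes, was at 0.08 (standard error 0.12), and Atp7b fell by 1.34 (standard error 0.23). In CB1R KO against WT bleomycin lungs 0 of the 9 were called by edgeR, DESeq2 or limma. An unadjusted p under 0.05 in edgeR was met by 3, all lower, where 9.08% of all genes tested met it with a lower level. Mt2 was at -1.37 (standard error 0.39, edgeR adjusted p = 0.0979).

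Other enzymes that cross-link matrix were measured for comparison. Of 5 tested, 2 transglutaminase genes rose in WT bleomycin against Control lungs, Tgm1 by 2.52 (standard error 0.20) and Tgm2 by 0.34 (standard error 0.08), a share below the 48.9% called among all genes tested, and Pxdn, which cross-links type IV collagen, was at 0.08 (standard error 0.09). Among the 3 other copper amine oxidases, which do not act on collagen, Aoc1, a diamine oxidase, was the 1 that rose, by 1.87 (standard error 0.21), again a share below that of all genes, and Aoc3 was at -0.55 (standard error 0.25, edgeR adjusted p = 0.0804). In CB1R KO against WT bleomycin lungs 0 of these 8 genes were called by edgeR or limma and 1 by DESeq2, which called 640 among all genes. An unadjusted p under 0.05 in edgeR was met by 2, both lower, where 9.08% of all genes tested met it with a lower level. Aoc1 was at -0.86 (standard error 0.20, edgeR adjusted p = 0.0552).

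Known inducers of lysyl oxidase genes, the TGF-beta pathway and hypoxia-inducible factors, were listed together with Snail factors and Ccn2. Genes of this list moved in both directions. Of 13 tested, 8 rose and 3 fell in WT bleomycin against Control lungs, with a median log2 fold change of 0.53. For all genes tested the shares called were 25.0% higher and 23.9% lower. Snai1, a transcription factor known as a partner of Loxl2, rose by 1.58 (standard error 0.19) and Tgfb3 by 1.15 (standard error 0.13). Hif1a rose by 0.85 (standard error 0.09), Tgfbr1 by 0.79 (standard error 0.07) and Tgfb1 by 0.47 (standard error 0.10). The 3 that fell were Epas1, Snai2 and Smad4. Epas1, a hypoxia-inducible factor abundant in lung endothelium, fell by 1.01 (standard error 0.10), Snai2 by 0.54 (standard error 0.16) and Smad4 by 0.13 (standard error 0.05). In CB1R KO against WT bleomycin lungs 0 of the 13 were called by edgeR or limma, with a median of -0.06. DESeq2 called 2 of them, where it called 640 among all genes. At an unadjusted p under 0.05 in edgeR 4 genes were lower, where 9.08% of all genes tested were. Ccn2, a target of TGF-beta, was at -0.74 (standard error 0.18, edgeR adjusted p = 0.0638) and Snai1 at -0.64 (standard error 0.18, edgeR adjusted p = 0.0955). Estimates were lower for 8 and higher for 5 of the 13 genes. Among the higher were Tgfbr1 at 0.02 (standard error 0.07) and Snai2 at 0.27 (standard error 0.16).

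**Figure D5:**
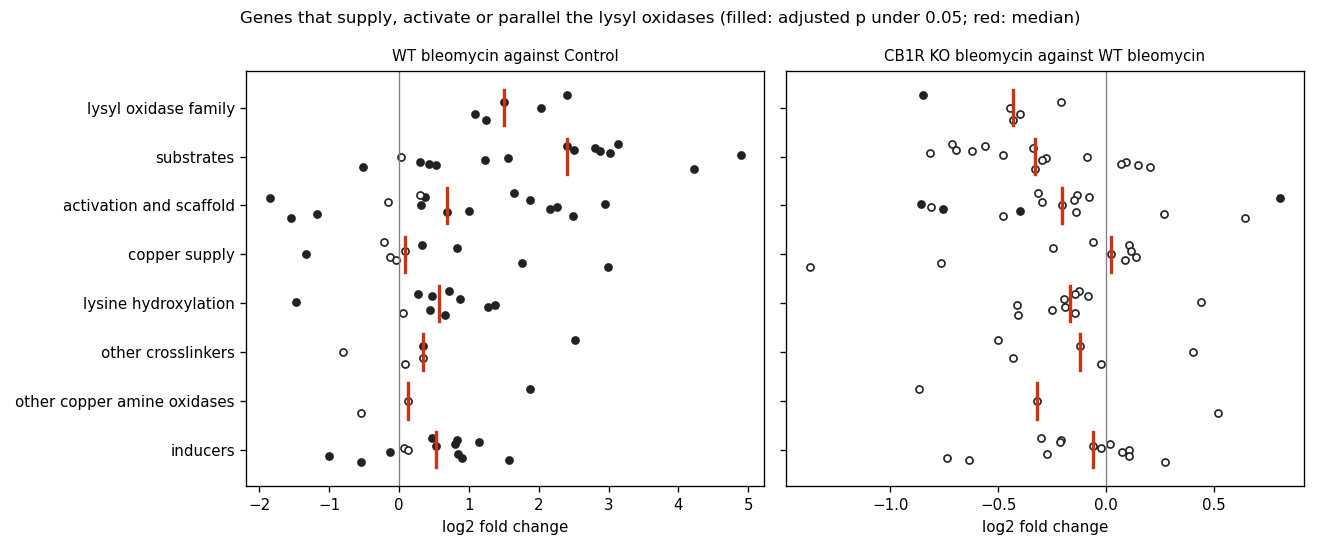
Log2 fold change (horizontal axis) of the 5 lysyl oxidase genes and of the tested genes of 7 related lists, for WT bleomycin against Control (left) and CB1R KO bleomycin against WT bleomycin (right, on a narrower scale); each point is a gene, filled where the adjusted p is under 0.05, and red bars are medians. On the left the medians are 1.50 for the family and 2.40 for its substrates, and on the right they are -0.43 and -0.33, with Lox and 4 genes of activation and scaffold filled.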

How the data were processed

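The authors sequenced poly(A)-selected lung RNA as paired-end reads, quantified it with Kallisto against the Ensembl mouse transcripts (GRCm39 in the submitters' processing notes) and summed estimated counts and TPM by gene over its protein-coding transcripts. The deposited tables hold these estimated counts, which are not normalized, and TPM. The 13 files of single samples hold the same values and were not used, nor was 1 column that matched no sample. The authors tested rounded counts with DESeq2. Here, rounded counts were filtered with filterByExpr, scaled by TMM and tested with edgeR 4.0.16 (R 4.3.3) in 1 fit of 13 libraries in 3 groups, with Benjamini-Hochberg adjustment over 15315 genes and a threshold of 0.05. Genes named were the 5 members, genes of 7 related lists, cell type markers and, per member, the 3 genes of most similar pattern, of which 2 are not reported here. The members and lists were chosen with earlier results of these data known. Log2 CPM used a prior count of 2. Libraries held 14615904 or more estimated counts, and the least abundant member, Loxl4, had between 83 and 580 of them per library. The test was tried on simulated counts with known changes. Alternatives were other count filters and normalizations, DESeq2 1.42.0, limma 3.58.1 on log2 TPM with pseudocounts of 1 and 0.1 for genes with a mean of at least 1 TPM, fits on 2 groups, label style as a term or lower-case labels alone, replicate 11 thinned, and each library left out. Sequences came from the GRCm38 genome with its GENCODE annotation, a build that differs from the authors' reference.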

Additional observations from a re-analysis of the deposited data

How the results depend on the processing

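In WT bleomycin against Control and in CB1R KO bleomycin against Control, 5 of 5 members were called under each of 25 alternatives. Between CB1R KO and WT bleomycin, no member changed direction under any alternative, and the call on Lox was kept in 13 of 25, with adjusted p from 0.000297 (DESeq2 on 13 libraries) to 0.275. It was lost, leaving 0 members called, with edgeR on the 2 groups (-0.84, adjusted p = 0.077), with label style as a term (-0.76, adjusted p = 0.120) and with lower-case labels only (-0.71, adjusted p = 0.275). Leaving out 1 library in turn gave 0 to 3 members called, with log2 fold changes between -1.12 and -0.71 for Lox, -0.63 and -0.36 for Loxl2, and -0.59 and -0.30 for Loxl3. The cause of these changes was not tested. The number of genes called between CB1R KO and WT bleomycin, 150, became 640 with DESeq2 on 13 libraries, 644 with DESeq2 on 2 groups, 82 with limma at a pseudocount of 0.1, 88 with edgeR on 2 groups, 41 with label style as a term, 6 with lower-case labels only, and 1 to 653 with 1 library left out (653 without CB1R KO 10, 1 without CB1R KO 9). Of the counts over the related lists, pooled over the 3 comparisons, 475 stayed within 1.5 times the reported count and 50 did not. Between CB1R KO and WT bleomycin only the activation and scaffold list had called genes. Its count stayed within that bound in 8 of 25 alternatives. No paired analysis was possible because the groups share no replicate numbers. With 4 or 5 libraries per group, the 95% interval of Loxl1 between CB1R KO and WT bleomycin runs from -0.60 to 0.18 on the log2 scale.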

Other observations

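The genes whose levels moved most like each member within groups were found from log2 CPM centred on the group means over 13 libraries, which leaves out the difference between groups. These correlations are descriptions over libraries that share their preparation, and the genes named were among the 3 highest of all genes tested for their member. Lox moved most like Alx4 (r = 0.94), Tnfsf18 (0.91) and Fbln2 (0.91), the last encoding the matrix protein fibulin 2, and without CB1R KO library 10 these values were 0.90, 0.81 and 0.82. Loxl1 moved most like Mrc2 (r = 0.98), which encodes a collagen receptor, Tnk2 (0.96) and Spata13 (0.94). For Loxl2 they included Ccn4 (r = 0.94), which encodes a matricellular protein, and Ung (0.91). For Loxl3 they included Col5a2 (r = 0.94), a type V collagen chain, and Adam12 (0.93), and for Loxl4 they were Tnip3 (r = 0.93), Fbxo44 (0.92) and Nav3 (0.90).

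Among the members themselves, Pearson r over 13 libraries was 0.80 for Loxl2 and Loxl3, 0.72 for Loxl2 and Loxl4, 0.72 for Lox and Loxl3, and 0.65 for Lox and Loxl2. The order of these pairs rested on single libraries and on the measure. Lox and Loxl3 were at 0.50 without CB1R KO library 10 and had a Spearman rho of 0.38. Lox and Loxl2 were at 0.44 without CB1R KO library 10 and at 0.84 without Control 26, with a Spearman rho of 0.53. Loxl2 and Loxl3 were at 0.70 without CB1R KO library 10 and at 0.81 without Control 26. Loxl1 and Lox were at 0.23, and Loxl1 and Loxl4 at -0.03, which became 0.37 without Control 3.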
